A study of Mus musculus with 12 samples.

Results

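The mammalian circadian clock genes were examined in B cells from Peyer's patches (PP), the lymphoid follicles of the small intestine wall, of 12 mice. The genes were taken by name: Arntl (also called Bmal1), Clock, Per1, Per2, Per3, Cry1, Cry2, Nr1d1, Nr1d2 and Dbp. All 10 were found among the 36175 genes of the expression table, and all 10 were among the 15624 genes with a mean value of at least 1 over the 12 mice, which were the genes tested. The mice were male C57BL/6JHsd wild type animals aged 10 to 12 weeks. In 6 of them, labelled as brain injury and called stroke mice here, a filament blocked the middle cerebral artery for 1 h before blood flow was restored. In the other 6, the sham controls, the filament was inserted and withdrawn at once. Both groups received buprenorphine before and carprofen after surgery, and both were kept on a cycle of equal light and dark periods. PP were collected 18 h after surgery. The hour of the day at collection is not given in the sources used here, so the values below are those of 1 moment per mouse and carry no information on phase or rhythm. B cells were enriched with a magnetic kit that leaves small amounts of epithelial and endothelial cells and then, to remove more of these, with beads against CD45, and total RNA was sequenced as 1 library per mouse.

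In the clock, the proteins of Arntl and Clock pair up and switch on the Per and Cry genes through E-box motifs, and the PER and CRY proteins then return to the nucleus and inhibit that pair. Another loop runs through Nr1d1 and Nr1d2, which encode the REV-ERB receptors that repress Arntl, and through the ROR receptors that activate it. Dbp encodes a PAR bZIP factor that carries the rhythm to output genes through D-box motifs. Per1 also answers directly to glucocorticoid and cAMP signals, and lymphocytes carry this clock as most other cells do.

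The promoter sequences of 3 members are shown because they hold the motifs by which the loop is wired. The set of RefSeq start sites on GRCm38.p6 used here held 13 start sites for 9 of the 10 genes and none for Per2. Each line gives 200 bases on the gene's strand, from base 250 to base 51 before the start site, 5′ to 3′. Capitals mark an E-box (CACGTG), an E-prime box (CACGTT, here read on the other strand as AACGTG) or a D-box (TTATGTAA).
Cry1, chr10:85185105-85185304, minus strand: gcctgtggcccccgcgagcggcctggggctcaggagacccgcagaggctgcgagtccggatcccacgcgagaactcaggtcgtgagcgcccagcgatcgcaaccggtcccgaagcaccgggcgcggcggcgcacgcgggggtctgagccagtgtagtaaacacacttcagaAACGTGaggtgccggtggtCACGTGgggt
Per1, chr11:69098699-69098898, plus strand: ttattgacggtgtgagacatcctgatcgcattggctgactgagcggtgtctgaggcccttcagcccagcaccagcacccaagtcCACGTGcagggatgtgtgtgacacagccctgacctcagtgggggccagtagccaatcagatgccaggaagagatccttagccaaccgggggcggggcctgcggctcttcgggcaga
Per3, chr4:151044716-151044915, minus strand: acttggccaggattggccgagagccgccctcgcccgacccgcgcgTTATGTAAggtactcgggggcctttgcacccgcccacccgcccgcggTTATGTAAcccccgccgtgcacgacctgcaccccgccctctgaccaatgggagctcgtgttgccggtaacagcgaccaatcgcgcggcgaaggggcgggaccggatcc

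In the 250 bases before the start site, Cry1 held an E-box that began 60 bases before it and an E-prime box that began 79 bases before it. Per1 held an E-box 166 bases before the start site shown, and Per3 held D-boxes 205 and 158 bases before its own. An E-prime box was also found 166 bases before the start of Cry2 and 28 bases before that of Nr1d1. Both strands were searched. Of the 9 members, 2 held the E-box, 3 the E-prime box and 1 a D-box. None of these motifs was found for Arntl, Clock, Nr1d2 and Dbp, or before the other start site of Per1. Of 32851 promoters of the same length, 6.02% held the E-box, 3.85% the E-prime box and 0.931% a D-box, for which TTATGTAA and TTACGTAA were accepted. The 10-base element bound by REV-ERB and ROR receptors was in 0.177% of the promoters, and the cAMP response element TGACGTCA was in 1.55%, with neither in the windows of the 9 members. These matches describe letters in a window and are not measured binding sites.

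Values are the deposited normalized TPM signal, an estimate of transcript abundance that is set per transcript length, so that levels of different genes can be compared. The sums over all genes ranged from 559570 to 1404340 between mice, and read numbers are not in the table, so the depth behind each value is unknown. Sham control 6 had the lowest sum, and stroke mouse 6 had 30060 genes above 0, against 20626 to 23947 in the other 11 mice. Sham control 6 and stroke mouse 5 had the lowest quality weights of the 12 libraries, 0.319 and 0.356. The B cell markers Ms4a1, Cd79a, Cd79b, Pax5 and Cd22 summed to between 1255 and 2280.3 in every mouse. The 6 epithelial markers (Epcam, Krt8, Krt18, Krt19, Cdh1, Vil1) summed to between 5.99 and 668 in sham controls, with a median of 152, and to between 7.62 and 291 in stroke mice, with a median of 54.1. All 6 had a negative log2 fold change in stroke mice, and none had a p under 0.05. The 6 T cell markers summed to between 36.2 and 124, and the 6 neutrophil markers to at most 4.58, with S100a8 listed at 0 in 6 mice, S100a9 in 7 and Ly6g in 8. Of the 5 endothelial markers, Pecam1 made up most of the sum of 78.4 to 106, and Cldn5 was listed at 0 in 9 mice.

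All 10 clock genes were measured above 0 in every mouse. Per1 was the most abundant, with a mean of 27.8 ± 16.0 (SD, n = 12), and it exceeded Clock, the next in order, in 11 of 12 mice. Clock (17.5 ± 1.56), Arntl (17.0 ± 1.68) and Nr1d2 (16.3 ± 4.78) followed at like levels: Clock was above Arntl in 6 of 12 mice and Arntl above Nr1d2 in 7 of 12, so their order did not hold beyond the spread between mice. Nr1d2 was above Cry2 in 11 of 12 mice.

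Cry2 (10.2 ± 2.69) was above Cry1 (8.55 ± 1.87) in 10 of 12 mice, and Cry1 was above Dbp (8.49 ± 2.25) in 4 of 12. Dbp was above Per2 (5.90 ± 1.89) in 11 of 12 mice, and Per2 was above Per3 (5.19 ± 1.19) in 7 of 12. Nr1d1 was the lowest member at 2.11 ± 1.64, below Per3 in 12 of 12 mice. Within the pairs of related genes, Nr1d2 was above Nr1d1 and Per1 above Per2 in 12 of 12 mice. The mean level of Per1 stood at the percentile 69.1 of the genes tested, and that of Nr1d1 at 14.2.

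The members also differed in their spread between mice of 1 group. Arntl and Clock were among the steadiest genes of the table: the SD of their log2 values within groups was 0.15 and 0.13, at the percentiles 5 and 2.1 of the genes tested. Nr1d1 was at the other end with an SD of 0.90, at the percentile 90.1, and over all 12 mice of both groups its highest value was 12.9 times its lowest. Per1 (percentile 75.4) and Nr1d2 (68.9) were in the upper part of the range. Per2, Cry1, Cry2 and Dbp stood between 47.5 and 51.9, and Per3 at 35.4.

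**Figure D1:**
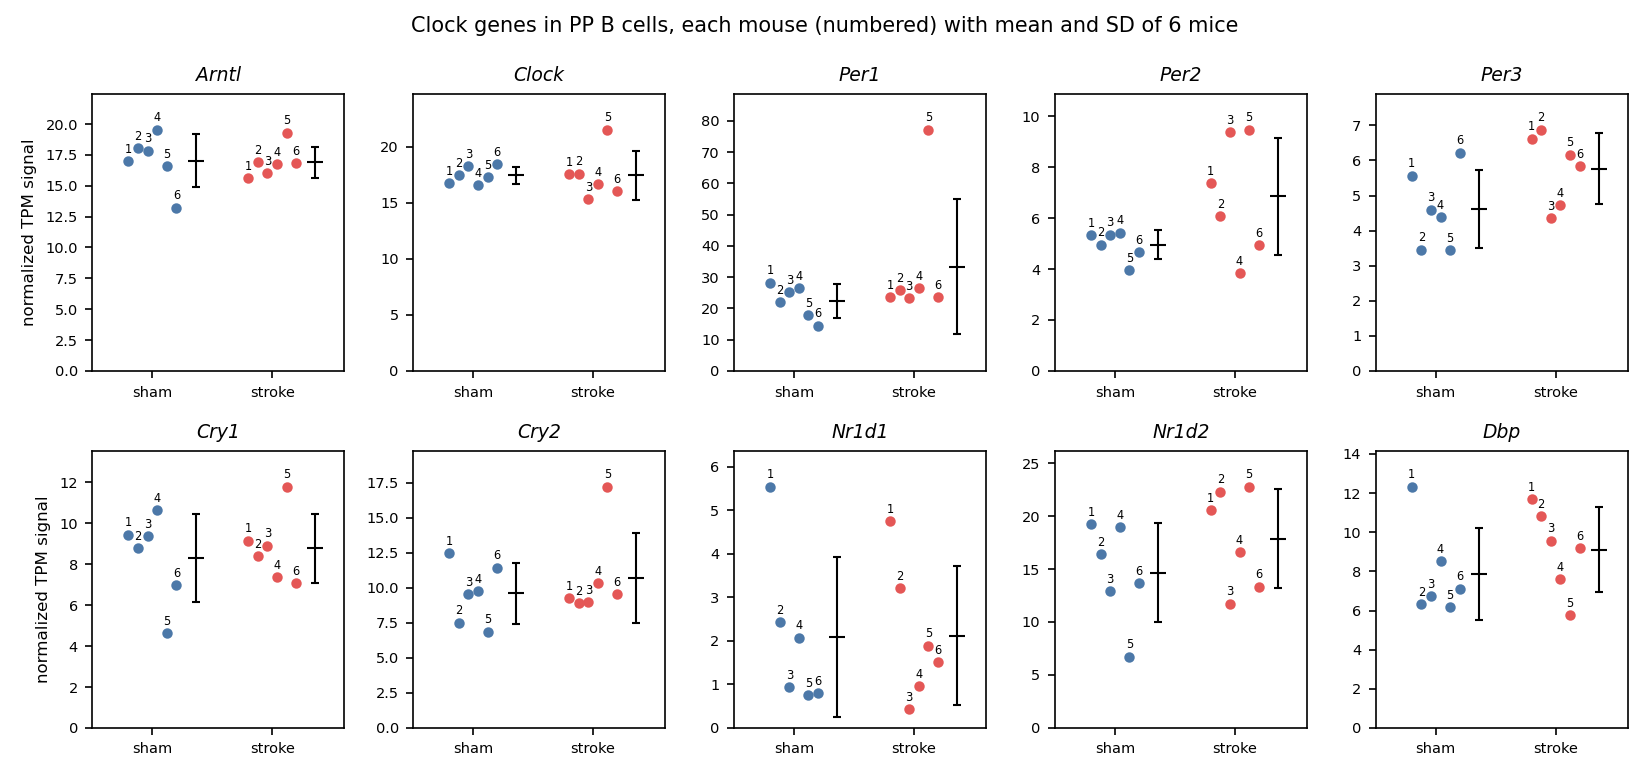
Each panel shows 1 clock gene, with the deposited normalized TPM signal on a linear vertical axis from 0, the 6 sham controls in blue and the 6 stroke mice in red. Numbers are the replicate numbers, the horizontal tick and bar are the mean and SD of 6 mice, and stroke mouse 5 is the highest mouse for 6 of the 10 genes.

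The comparison of stroke with sham mice asked how gene expression of PP B cells differed after brain injury. None of the 10 clock genes passed the test in either direction. With limma at an unadjusted p under 0.05, 0 of 10 were higher in stroke mice, against 4.29% of all genes tested, and 0 of 10 were lower, against 1.6%. After Benjamini-Hochberg adjustment over all genes, 0 of 10 passed an adjusted p of 0.05, against 0.0064% (1 gene) of all genes, and the adjusted p of the members lay between 0.789 and 0.995. The values of the 2 groups overlapped for all 10, and 0.416% of all genes tested did not overlap. The log2 fold change was positive for 8 members and negative for Arntl and Clock, which turned positive with equal totals and with quantile normalization, with a median of 0.17 over the members beside 0.01 over all genes tested. In such bulk samples, fewer cells of a type and less RNA per cell cannot be told apart.

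**Figure D2:**
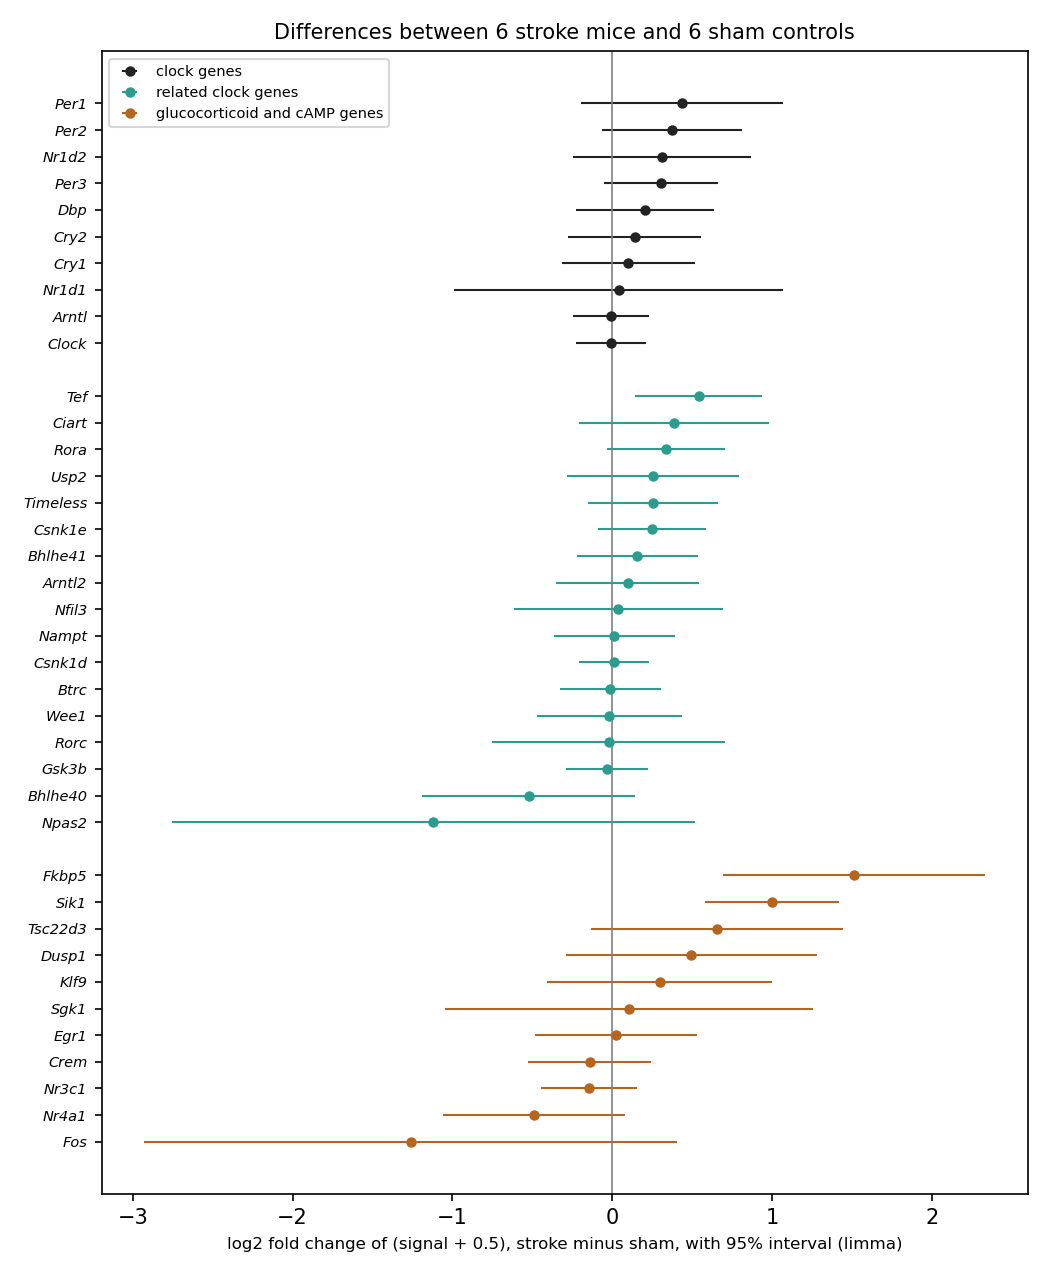
Points are log2 fold changes of the signal plus 0.5, stroke minus sham, and bars are 95% intervals from limma with 6 mice per group, for the 10 clock genes (black), the related clock genes tested (green) and the tested genes of glucocorticoid and cAMP signals (brown). The intervals of all 10 clock genes include 0, and those of Tef, Fkbp5 and Sik1 lie above it.

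The activators Arntl and Clock had the smallest differences and the narrowest intervals. Arntl (ENSMUSG00000055116, chr7:113207465-113314126, plus strand, GRCm38) was lowest at 13.2, had a median of 17.4 and was highest at 19.5 in sham controls, against 15.6, 16.8 and 19.3 in stroke mice. Its group means were 17.0 ± 2.13 (SD, n = 6) and 16.9 ± 1.28. The groups overlapped over nearly their whole range, with sham control 6 below every other mouse. Stroke and sham mice differed by a log2 fold change of -0.005 ± 0.110 (SE), with an exact permutation p of 0.961 and a limma adjusted p of 0.995. The 95% interval ran from a level in stroke mice 0.844 times that of sham controls to 1.18 times.

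Clock (ENSMUSG00000029238, chr5:76209868-76304792, minus strand) encodes the partner of the Arntl protein. It had a lowest, median and highest value of 16.6, 17.4 and 18.4 in sham controls and of 15.3, 17.1 and 21.5 in stroke mice, of which mouse 5 was the highest. The means were 17.5 ± 0.761 and 17.4 ± 2.18 (SD, n = 6). Its log2 fold change was -0.009 ± 0.101 (SE), with an exact permutation p of 0.916 and a limma adjusted p of 0.988, and the interval ran from 0.854 to 1.16 times the sham level. The differences of Arntl and Clock were so close to 0 that their sign turned under other scalings.

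The Per genes encode the repressors that the pair of activators induces, and all 3 had positive fold changes that did not pass the test. Per1 (ENSMUSG00000020893, chr11:69095217-69109960, plus strand) was lowest at 14.5, had a median of 23.6 and was highest at 28.2 in sham controls. In stroke mice it was lowest at 23.3, had a median of 24.7 and was highest at 77.2. The medians of the groups lay close together, and stroke mouse 5 stood apart from the other 5 stroke mice, which were between 23.3 and 26.5. The means were 22.4 ± 5.32 and 33.3 ± 21.5 (SD, n = 6), and 6 of 6 stroke mice were above the sham mean. The log2 fold change was 0.44 ± 0.29 (SE), with limma p = 0.159 (adjusted p = 0.791), exact two-sided permutation p = 0.21 and an interval from 0.873 to 2.10 times the sham level. Without stroke mouse 5 it was 0.16 (limma adjusted p = 0.989), and with sham control 6 left out as well, an alternative added after the data were seen, it was 0.05.

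Per2 (ENSMUSG00000055866, chr1:91415982-91459324, minus strand) was lowest at 3.95, had a median of 5.14 and was highest at 5.43 in sham controls, and was 3.84, 6.73 and 9.47 in stroke mice. Stroke mice 1, 2, 3 and 5 were above every sham control, and stroke mouse 4 was below all of them. The means were 4.95 ± 0.566 and 6.85 ± 2.31 (SD, n = 6). For Per2 the log2 fold change was 0.37 ± 0.20 (SE), with limma p = 0.0861, adjusted p = 0.789 and exact permutation p = 0.106. Its interval ran from 0.958 to 1.75 times the sham level. It passed in 1 of 26 alternatives, without stroke mouse 4, where it was 0.51 with an unadjusted limma p of 0.0127. With library weights it was 0.15 with an unadjusted limma p of 0.474, and without stroke mouse 3 or 5 it was 0.28 or 0.27.

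Per3 (ENSMUSG00000028957, chr4:151003652-151044665, minus strand) was 3.45, 4.49 and 6.22 at its lowest, median and highest in sham controls and 4.36, 6.00 and 6.88 in stroke mice. The groups overlapped, with sham controls 1, 3, 4 and 6 within the range of the stroke mice and sham controls 2 and 5 below it. The means were 4.61 ± 1.12 and 5.76 ± 1.02 (SD, n = 6), and 5 of 6 stroke mice were above the sham mean. Its log2 fold change was 0.30 ± 0.17 (SE), with limma p = 0.0888, adjusted p = 0.789, exact permutation p = 0.0909 and an interval from 0.963 to 1.59 times the sham level. Leaving out sham control 6 gave 0.39 with an unadjusted limma p of 0.0296 and an adjusted p of 0.307. Leaving out stroke mouse 3 gave 0.38 with an unadjusted limma p of 0.0462, and leaving out both sham control 6 and stroke mouse 5 gave 0.37 with one of 0.0499. In the other direction, it was 0.24 without sham control 2 or 5, with an unadjusted limma p of 0.184 or 0.187, and it passed in 3 of 26 alternatives in all.

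The Cry genes encode the partners of the PER proteins in repression. Cry1 (ENSMUSG00000020038, chr10:85131700-85185064, minus strand), whose promoter holds the E-box and E-prime box shown above, was 4.63, 9.07 and 10.7 at its lowest, median and highest in sham controls and 7.08, 8.65 and 11.8 in stroke mice. Sham control 5 was the lowest mouse and stroke mouse 5 the highest. The means were 8.31 ± 2.17 and 8.78 ± 1.69 (SD, n = 6), with a log2 fold change of 0.10 ± 0.19 (SE), exact permutation p = 0.656, limma adjusted p = 0.913 and an interval from 0.803 to 1.43 times the sham level. It turned to -0.05 without sham control 5, and was 0.02 without stroke mouse 5 and 0.18 without sham control 4.

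Cry2 (ENSMUSG00000068742, chr2:92403646-92434043, minus strand) was 6.86, 9.64 and 12.5 in sham controls and 8.92, 9.40 and 17.2 in stroke mice. As for Per1, stroke mouse 5 stood apart, with the other 5 stroke mice between 8.92 and 10.3. The means were 9.60 ± 2.17 and 10.7 ± 3.23 (SD, n = 6). Its log2 fold change was 0.14 ± 0.19 (SE), with exact permutation p = 0.513, limma adjusted p = 0.877 and an interval from 0.827 to 1.47 times the sham level, and it was 0.0 without stroke mouse 5.

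The REV-ERB genes form the arm of the clock that represses Arntl. Nr1d1 (ENSMUSG00000020889, chr11:98767932-98775333, minus strand) was 0.751, 1.51 and 5.54 at its lowest, median and highest in sham controls and 0.429, 1.70 and 4.76 in stroke mice. Sham control 1 and stroke mouse 1 were the highest mice of their groups, and the groups covered nearly the same range. The means were 2.09 ± 1.84 and 2.12 ± 1.598 (SD, n = 6). Between the groups the log2 fold change was 0.04 ± 0.47 (SE), with exact permutation p = 0.937 and limma adjusted p = 0.989. Its interval, from 0.505 to 2.10 times the sham level, was the widest of the 10 members, and its sign turned when single mice were left out.

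Nr1d2 (ENSMUSG00000021775, chr14:18204054-18239127, minus strand) was 6.74, 15.0 and 19.2 in sham controls and 11.7, 18.6 and 22.8 in stroke mice. Stroke mice 1, 2 and 5 were above every sham control, and sham control 5 was below every other mouse. The means were 14.6 ± 4.67 and 17.9 ± 4.71 (SD, n = 6). Its log2 fold change was 0.31 ± 0.26 (SE), with exact permutation p = 0.288, limma adjusted p = 0.819 and an interval from 0.843 to 1.82 times the sham level. Without sham control 5 it was 0.11 (limma adjusted p = 0.917).

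Dbp, the output factor (ENSMUSG00000059824, chr7:45705088-45710203, plus strand), was 6.17, 6.92 and 12.3 at its lowest, median and highest in sham controls and 5.76, 9.37 and 11.7 in stroke mice. Sham control 1 was the highest mouse and stroke mouse 5, the highest for 6 other members, was the lowest. The means were 7.86 ± 2.34 and 9.11 ± 2.16 (SD, n = 6), with a log2 fold change of 0.21 ± 0.20 (SE), exact permutation p = 0.333, limma adjusted p = 0.839 and an interval from 0.854 to 1.56 times the sham level. Single mice moved it both ways, to 0.13 without stroke mouse 1, 0.32 without stroke mouse 5 and 0.34 without sham control 1, and it did not pass the test in any alternative.

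Ratios of the deposited values within a mouse, taken with no pseudocount, do not depend on how that mouse was scaled. The log2 ratio of Arntl to Nr1d1, which peak at opposite phases of a running clock, ranged from 1.61 to 4.47 in sham controls, with a median of 3.65, and from 1.71 to 5.22 in stroke mice, with a median of 3.42. The ranges of the groups overlapped over most of their length, and stroke mouse 3, with the lowest Nr1d1, had the highest ratio. The log2 ratio of Arntl to Per2 ranged from 1.501 to 2.07 in sham controls, with a median of 1.79, and from 0.77 to 2.12 in stroke mice, with a median of 1.28. That of Arntl to Clock stayed between -0.48 and 0.24 in all 12 mice. These ratios were not tested.

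The other genes of the clock were taken as a list of 20, of which 17 were tested. Rorb, Hlf and Fbxl21 had a mean below 1 and were left out of the limma test. Their exact permutation p, with no adjustment, was 0.595, 0.143 and 0.0173. Fbxl21 had means of 1.05 in sham controls and 0.443 in stroke mice. Of the 17, 1, Tef, was higher at an unadjusted limma p under 0.05, 0 were lower, and the median log2 fold change was 0.04. This share is near that of all genes tested, of which 4.29% were higher and 1.6% lower. Tef encodes a PAR bZIP factor of the same family as Dbp and was above Dbp in 12 of 12 mice. It was 19.0, 22.7 and 39.6 at its lowest, median and highest in sham controls and 31.0, 36.2 and 45.3 in stroke mice. Sham control 6 was the only sham control within the range of the stroke mice. The means were 25.5 ± 7.93 and 36.3 ± 5.17 (SD, n = 6). The log2 fold change of Tef was 0.54 ± 0.18 (SE), with limma p = 0.0113, adjusted p = 0.789 and exact permutation p = 0.026, and it did not hold after adjustment. Rescaled to equal totals it was 0.66 with an unadjusted limma p of 0.0711.

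The 3 most abundant genes of that list were Csnk1d, Timeless and Bhlhe40. Csnk1d, a kinase of PER proteins, had means of 88.6 and 89.2 in sham and stroke mice and a log2 fold change of 0.01, whose sign turned under other settings. It was above Per1 in 12 of 12 mice. Timeless had means of 43.0 and 51.1, with a log2 fold change of 0.25 and an exact permutation p of 0.208, and the log2 fold change was 0.14 with the epithelial score in the fit. Bhlhe40, a repressor that competes for E-boxes, had means of 42.2 ± 16.8 in sham controls and 28.7 ± 9.28 in stroke mice (SD, n = 6), and 0 of 6 stroke mice were above the sham mean. Its log2 fold change was -0.52 ± 0.31 (SE), with exact permutation p = 0.152 and limma adjusted p = 0.789. It was -0.32 without stroke mouse 5, -0.70 without sham control 6, where the unadjusted limma p was 0.0329, and -0.20 with the epithelial score in the fit. Arntl2, a paralog of Arntl that was singled out after its values were seen, had means of 29.5 ± 9.24 and 30.9 ± 6.58 and was above Arntl in 12 of 12 mice.

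Per1 responds to glucocorticoid and cAMP signals, and genes of these signals were set beside it as a list of 12, of which 11 were tested. Zbtb16 had a mean below 1 and was left out of the limma test. Its means were 0.507 in sham controls and 1.38 in stroke mice, with 6 of 6 stroke mice above the sham mean. Its exact permutation p was 0.00866, with no adjustment. Fkbp5 and Sik1 were higher at an unadjusted limma p under 0.05, 0 were lower, and the median log2 fold change was 0.11. Over all genes tested, 4.29% were higher and 1.6% lower. Fkbp5, a glucocorticoid-induced co-chaperone of the glucocorticoid receptor, was 26.4, 33.0 and 80.0 at its lowest, median and highest in sham controls and 52.5, 101 and 282 in stroke mice. Stroke mouse 5, the mouse with the highest Per1, was also the highest for Fkbp5. The log2 fold change of Fkbp5 was 1.51 ± 0.38 (SE), with limma p = 0.00167, adjusted p = 0.776 and exact permutation p = 0.00649.

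Sik1, a kinase induced by cAMP that restrains CREB coactivators, was 11.03, 19.3 and 24.2 in sham controls and 28.3, 35.96 and 43.4 in stroke mice, so that its groups did not overlap. Its log2 fold change was 1.001 ± 0.192 (SE), with limma p = 0.000203, adjusted p = 0.486 and exact permutation p = 0.00216, the smallest that 6 against 6 mice can give. Neither gene passed after adjustment. Of the other most abundant genes of the list, Tsc22d3 had means of 75.1 and 105 (log2 fold change 0.65, exact permutation p = 0.145), and Nr3c1, the glucocorticoid receptor itself, had means of 88.1 and 78.7 (log2 fold change -0.14, exact permutation p = 0.297). Both moved with single mice and settings. Without sham control 6, Tsc22d3 was 0.36 and Nr3c1 was -0.26, the latter with an unadjusted limma p of 0.0242, and without sham control 2 Nr3c1 was -0.09. With equal totals Tsc22d3 was 0.78 with an unadjusted limma p of 0.0145, and Nr3c1 was -0.02. With the epithelial score in the fit Tsc22d3 was 0.89 with an unadjusted limma p of 0.0267, and Nr3c1 was -0.05. The other genes of the list that were tested did not pass the test. Whether these signals had a part in the levels of Per1 was not tested.

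**Figure D3:**
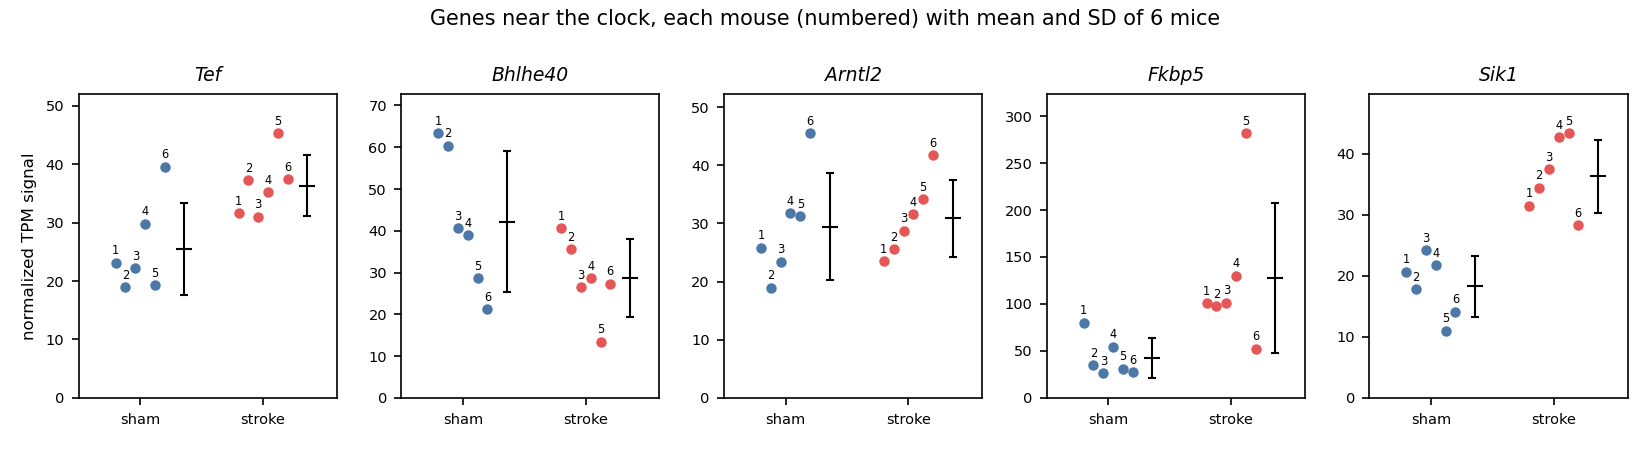
Panels show Tef, Bhlhe40, Arntl2, Fkbp5 and Sik1, with the deposited normalized TPM signal on linear vertical axes from 0, 6 sham controls in blue and 6 stroke mice in red, numbered by replicate, and the mean and SD beside them. For Sik1 all stroke mice lie above all sham controls, and for Tef only sham control 6 lies within the range of the stroke mice.

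The members were also compared with each other across the 12 mice, on the log2(signal + 0.5) scale. Of the 45 pairs, 40 had a positive Pearson's r and 0 passed an adjusted permutation p of 0.05 over the 45 pairs. The share of positive pairs among other genes was not computed, so the count of 40 cannot be read as a trait of the clock genes. The highest r was that of Cry1 and Nr1d2, 0.793 (Spearman's rho 0.545, permutation p = 0.00446 for r and 0.0705 for rho, adjusted p = 0.189 and 0.352). It rested on sham control 5 and stroke mouse 5, without which r was 0.348. Nr1d1 and Nr1d2, the paired receptors, had r = 0.704 and rho = 0.79 (permutation p = 0.0084 and 0.0034, adjusted p = 0.189 and 0.147), with r = 0.729 within sham controls, 0.777 within stroke mice, and 0.721 without sham control 1 and stroke mouse 1.

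Per2 and Cry1, which encode partners in repression, had r = 0.663 and rho = 0.727 (permutation p = 0.018 and 0.00983, adjusted p = 0.21 and 0.147). Within sham controls their r was 0.988 (exact permutation p = 0.00278), and within stroke mice it was 0.84 (exact permutation p = 0.0361). These p within groups of 6 mice were not adjusted. Without stroke mice 3 and 5 the r of Per2 and Cry1 was 0.652. The other pairs of a Per and a Cry gene had r between 0.315 (Per3 and Cry1) and 0.72 (Per1 and Cry2). Arntl and Per1 had r = 0.666 and rho = 0.657 (permutation p = 0.0453 and 0.0239, adjusted p = 0.21 and 0.155), with 0.826 and 0.928 within the groups and 0.695 without sham controls 4 and 6. Arntl and Nr1d1 had r = 0.232 and rho = 0.385 (permutation p = 0.477 and 0.218, adjusted p = 0.631 and 0.447), and -0.003 without sham controls 4 and 6. The lowest r was that of Clock and Dbp, -0.524, with rho = -0.413 (permutation p = 0.0726 and 0.184, adjusted p = 0.233 and 0.432), and it was -0.313 without stroke mice 3 and 5.

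**Figure D4:**
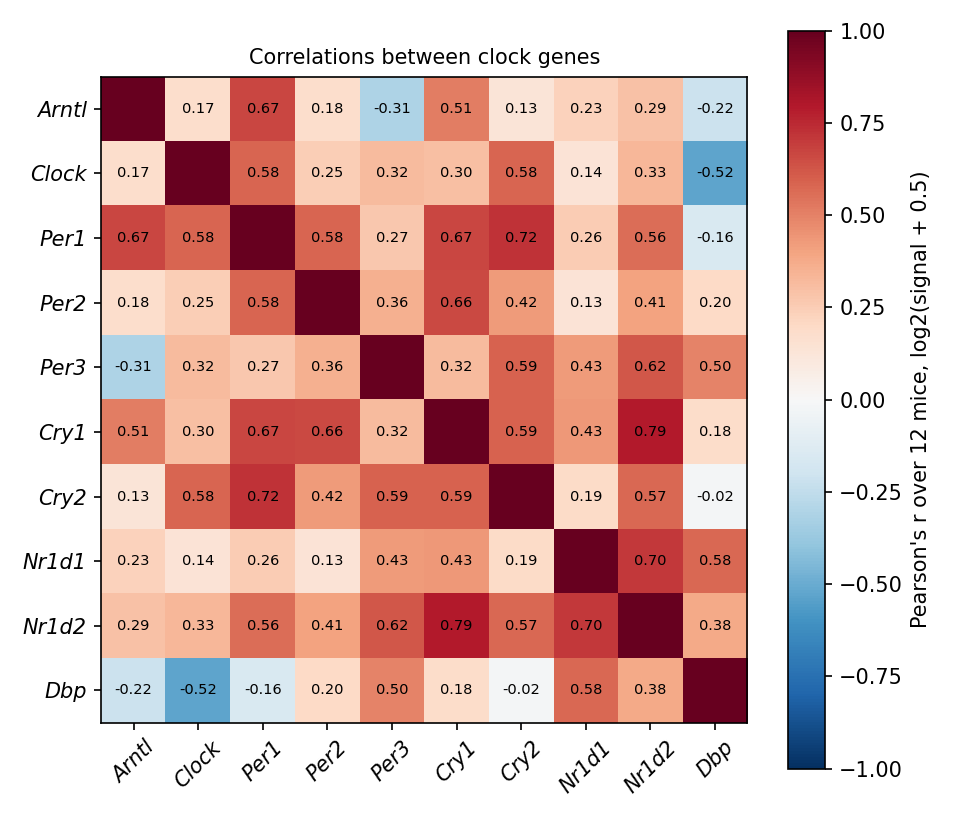
Each cell gives Pearson's r between 2 clock genes over 12 mice, computed from log2(signal + 0.5), on a colour scale from -1 (blue) to 1 (red). Most pairs are positive, with the highest r between Cry1 and Nr1d2 and the lowest between Clock and Dbp, and no pair passed the adjusted permutation test.

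Members were also set against the levels of cell type markers. The score of a marker list was its mean log2(signal + 0.5), and of the 80 relations between 10 members and 8 scores, 0 passed an adjusted permutation p of 0.05. The 3 plotted here were chosen after their values were seen. Dbp and the T cell score had r = 0.774 and rho = 0.72 (permutation p = 0.00392 and 0.0105, adjusted p = 0.21 and 0.42), with 0.737 within sham controls, 0.855 within stroke mice and 0.834 without sham control 5 and stroke mouse 4. Nr1d1 and the epithelial score had r = 0.691 and rho = 0.657 (permutation p = 0.0144 and 0.0231, adjusted p = 0.384 and 0.42). Within the groups r was 0.727 and 0.801, and it was 0.638 without sham control 6 and stroke mouse 4. The relation was not particular to that score, as Nr1d1 had r = 0.656 with the T cell score and 0.587 with the plasma cell score. With the epithelial score in the limma fit, an alternative added after the data were seen, the log2 fold change of Nr1d1 was 0.54 (limma adjusted p = 0.963) in place of 0.04, and 0 of 10 members passed the test. Cry2 and the B cell score had r = -0.766 and rho = -0.629 (permutation p = 0.00524 and 0.0315, adjusted p = 0.21 and 0.42), with -0.506 and -0.966 within the groups, and r was -0.339 without sham control 6 and stroke mouse 5. The part of these cells in the levels of the clock genes was not tested further.

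**Figure D5:**
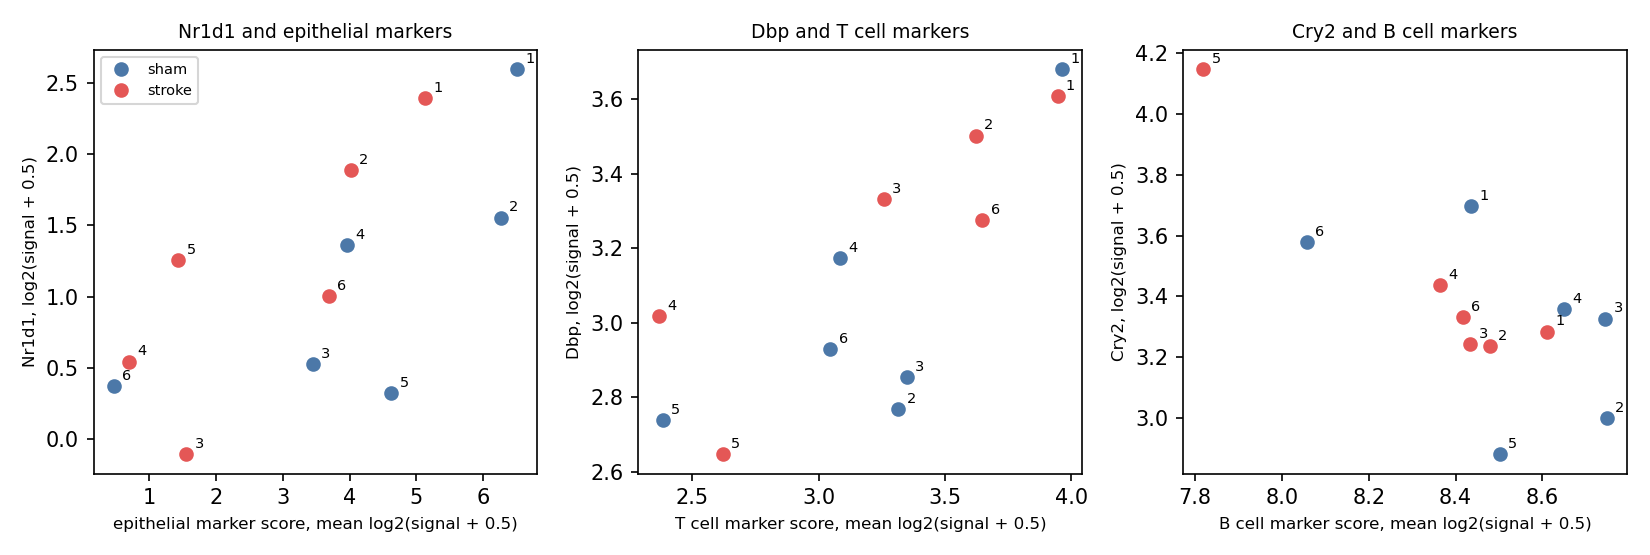
From left to right, Nr1d1 is plotted against the epithelial score, Dbp against the T cell score and Cry2 against the B cell score, with 6 sham controls in blue and 6 stroke mice in red, numbered by replicate, on log2(signal + 0.5) axes. The points of Nr1d1 and Dbp run upward with the scores (r = 0.691 and 0.774, neither past the adjusted test), and Cry2 in stroke mouse 5, which has the lowest B cell score, lies above all other mice.

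For each member, the genes with the most similar pattern were sought among the genes tested that were not members, by Pearson's r of the deviations from the group means over 12 mice, taken relative to the mean of each mouse, and the top 2 are given as a description. They were Med17 (r = 0.945) and Cblb (0.943) for Arntl, and Smchd1 (0.97) and Btaf1 (0.96) for Clock. For Per1 they were Pde3b (0.971) and Zscan25 (0.956), for Per2 Gngt1 (0.864) and Oxa1l (0.85), and for Per3 Cryba2 (0.923) and Dedd (0.9). For Cry1 they were Tle4 (0.914) and Eif4ebp3 (0.906), and for Cry2 Pip5k1a (0.976) and Gm15547 (0.971). For Nr1d1 they were Plek2 (0.933) and Slc5a12 (0.924), and for Nr1d2 Gm45893 (0.899) and Notch1 (0.882). For Dbp they were Map3k10 (0.879) and Slc19a1 (0.872). Each r is the highest of a search over all genes tested in only 12 mice, so a high value is no evidence of a link. Per1 and Cry2 stood apart in stroke mouse 5, and how far their matches rest on that mouse was not tested.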

How the data were processed

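Total RNA of PP B cells from 6 sham controls and 6 stroke mice was sequenced, with 1 library per mouse. Per the study's methods and the submitters' processing notes, the authors checked reads with FastQC, trimmed with Trimmomatic 0.39, used kallisto 0.48.0 and mouse Ensembl transcripts (GRCm38) for quantification, and normalized in sleuth 0.30.0 under R 4.1.2. The deposited values are a signal labelled normalized TPM. Their sums differ between mice (559570 to 1404340), unlike those of TPM, so they were treated as a normalized signal and not as TPM or counts, although the design had assumed TPM. Read depth is unknown.

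The members and gene lists were chosen with earlier results of these data known. Values were tested as log2(value + 0.5) with limma 3.58.1 (R 4.3.3) over genes with a mean of at least 1, two-sided, with Benjamini-Hochberg adjustment over all 15624 genes, and the code was tested on simulated data. Exact two-sided permutation tests over the mice stand beside single genes. Fold changes are on that log2 scale and understate those of low genes. Correlations used 100000 permutations in NumPy 2.4.6, with ranks from SciPy 1.17.1. Named were all 10 members, genes of the related and inducer lists with an unadjusted p under 0.05, the 3 most abundant of each list, and the 2 genes most like each member. Untested, outlying and marker genes and Arntl2 are named besides. A gene of the related list and a marker gene are not reported here. Gene positions are from the GENCODE annotation of GRCm38. Alternatives covered the pseudocount, filter, scaling, replicate block, variance trend, library weights and each mouse left out.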

Additional observations from a re-analysis of the deposited data

Results flagged for a closer look

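In 6 of the 84 groups of values checked (42 genes in 2 groups of mice), 1 mouse lay far from the other 5 by Dixon's test at the 95% level on the log2(signal + 0.5) scale, and chance alone gives this in about 1 of 20 groups. The values given here are the deposited signal. Per1 was 77.17 in stroke mouse 5, against 23.26 to 26.46 in the other stroke mice. Cry2 was 17.22 in the same mouse, against 8.92 to 10.34. Ciart, a repressor of the clock, was 1.55 in sham control 2, against 4.13 to 6.76. Among the glucocorticoid genes, Klf9 was 1.024 in sham control 6, against 1.717 to 2.184, and Nr3c1 was 58.61 in that mouse, against 88.29 to 105.7. Zbtb16 was 1.543 in sham control 1, against 0.1213 to 0.3758. On the deposited scale 12 groups were past the same limit, 4 of them (Per1, Cry2, Zbtb16 and Nr3c1) on both scales, and the 8 added were Arntl, Clock, Fkbp5 and Klf9 in stroke mouse 5, Nr1d1, Hlf and Fbxl21 in sham control 1, and Nr4a1 in stroke mouse 2.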

How the results depend on the processing

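The 10 members gave 259 results over the alternatives (26 each, and 25 for Nr1d1, which has a value under 1 in some mice). Of these, 4 had an unadjusted p under 0.05, 3 for Per3 and 1 for Per2, and the smallest adjusted p was 0.307. The sign changed in 28. Over all genes, 670 were higher and 250 lower at an unadjusted p under 0.05. The count of higher genes was 1418 with no filter on low values, 440 with equal totals and 438 with equal totals without immunoglobulin genes, and ranged from 472 to 1119 when 1 mouse was left out, with the highest without sham control 6. The count of lower genes was 120 with equal totals, 114 with equal totals without immunoglobulin genes, 508 with a replicate block, 650 with library weights and 852 without both sham control 6 and stroke mouse 5, a setting added after the data were seen. It ranged from 170 to 1302 when 1 mouse was left out, with 1302 without sham control 6 and 398 without stroke mouse 1. At an adjusted p under 0.05, 1 gene passed in the main comparison, 3 with library weights and 0 with a pseudocount of 0.1, a minimum of 1 in each mouse, no filter, quantile normalization, the block, a variance trend, the epithelial score as covariate or without both mice, and 0 to 2 when 1 mouse was left out. The cause was not tested. Equal totals moved the median log2 fold change of all genes to 0.13, and the 2 signs that turned among the activators turned with it.

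Arntl turned to 0.117 with equal totals, 0.113 without immunoglobulin genes, 0.014 with quantile normalization and 0.03 with the epithelial score, and ranged from -0.075 to 0.035 when 1 mouse was left out. Clock turned to 0.113, 0.108 and 0.001 under those scalings, and ranged from -0.07 to 0.026. Cry1 turned to -0.054 with library weights and -0.023 without both mice, and ranged from -0.047 to 0.177. Cry2 ranged from 0.0 to 0.218. Nr1d1 came to 0.0 with library weights and -0.128 without both mice, and ranged from -0.205 to 0.335. Arntl2 turned to -0.079 with the epithelial score, and ranged from -0.019 to 0.23. Csnk1d turned to -0.011 with median of ratios and -0.034 with the epithelial score, and ranged from -0.03 to 0.045. Relative to the mean of each mouse, r of Arntl and Nr1d1 was -0.157, and the other pairs named kept their sign.

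The replicate numbers are shared by the groups. Same-numbered mice deviated together for 5 of 6 numbers (r = 0.471, 0.253, 0.15, 0.159, -0.014 and 0.218). Their mean r was 0.206, against -1e-04 for mice with unlike numbers. Because the relation did not hold for every number, the mice were not taken as pairs in the main test, and the replicate block was run as an alternative. With the replicate block, 930 genes were higher and 508 lower, 0 of 10 members passed the test, and Bhlhe40 had an unadjusted limma p of 0.0244 (0.0244 to 0.394 over its 26 alternatives). With no read counts, depth sets no stated limit. The number of mice and the spread between them set the width of the intervals.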
